A study of Mus musculus with 6 samples.

Results

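The BCL2 family decides whether the outer membrane of mitochondria stays intact or opens to start cell death. The members described here are 10 genes fixed by name, namely Bcl2, Bcl2l1, Mcl1, Bcl2l11, Bbc3, Pmaip1, Bid, Bad, Bax and Bak1, and all 10 were found among the 55401 genes of the deposited expression table by their Ensembl identifiers. Their RNA was compared between mouse cultures that the labels call female germline stem cells (FGSCs), a line of C57BL/6 strain past passage 20, left untreated or given metformin. Each group has 3 libraries, and the dose of metformin was 1 μM over 24 h. Cells of both groups grew on STO feeder cells, a mouse fibroblast line that had been stopped from dividing, in medium with serum, LIF, EGF, bFGF and GDNF. The labels number the libraries of each group but do not say that they came from separate cultures, so p-values measure the spread between these libraries, which may be technical.

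Pro-survival members hold the membrane closed by binding the other members. Mcl1 encodes a short-lived pro-survival protein, Bcl2l1 encodes BCL-xL, and Bcl2 encodes the founding member of the family. BH3-only members start death by neutralising the pro-survival proteins or by switching on the effectors, and include BIM (Bcl2l11), PUMA (Bbc3), NOXA (Pmaip1), BID and BAD. The effectors BAX and BAK (Bak1) form the pores. Several of these genes are known stress targets, since p53 raises Bbc3, Pmaip1 and Bax, the integrated stress response factors ATF4 and CHOP (Ddit3) can raise Bbc3, Bcl2l11 and Pmaip1, and CHOP has been described to lower Bcl2.

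Expression was deposited as FPKM, a fragment count scaled for gene length and for library depth. Depth was read from the steps that whole fragments leave in the FPKM of short genes and was 13400000 to 14000000 fragments per library, so that 1 FPKM stood for 13.4 to 14.0 fragments per kilobase. The label of the cells was checked against markers. Of 6 germ cell markers 0 reached a mean of 1 FPKM, with Pou5f1, Dppa3 and Dazl listed at 0 in every library, whereas all 10 genes of a blood cell list did. The summed FPKM of that blood cell list was 790.9 to 803.6 in the control group and 815.9 to 825.3 with metformin, with Gata2 at 258 ± 5.49 and 275 ± 2.99 FPKM (SD, n = 3 each). Of its 10 genes 4 were apart, without overlap of the groups, and higher with metformin, and 2, Ptprc and Lcp1, apart and lower. Among all 10661 genes that averaged 1 FPKM or more, 8.89% were apart and higher and 8.1% apart and lower. The part of these differences in the results below was not tested. The 11 fibroblast markers, which would mark feeder cells, summed to 0.91 to 1.05 FPKM in the control group and 0.83 to 0.84 with metformin, with Lum at 0 in all libraries. In bulk RNA, fewer cells of a type and less RNA per cell cannot be told apart.

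All 10 members were expressed, with mean levels from 2.91 FPKM for Bcl2l11 to 96.1 FPKM for Bax. FPKM is scaled by gene length, so these levels can be ordered. The gene lengths that the authors used are not given in the sources used here, and the order of close levels could depend on them. The effectors and Mcl1 stood at the top, and Bax exceeded each other member in all 6 libraries. Bak1 and Mcl1 came next, and their ranges overlapped in the control group, at 60.9 to 66.17 for Bak1 and 62.09 to 65.14 for Mcl1. Bcl2l1 and Bid followed, close to each other in the control group, where the lowest Bcl2l1 value was 29.46 FPKM and the highest Bid value 29.29. Pmaip1 was lower than both. Bbc3 and Bcl2 overlapped in the control group and were apart with metformin, and Bad and Bcl2l11 were the lowest. Among the 10661 genes that averaged 1 FPKM or more, the members ran in level from percentile 19 (Bcl2l11) to percentile 95.2 (Bax).

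**Figure D1:**
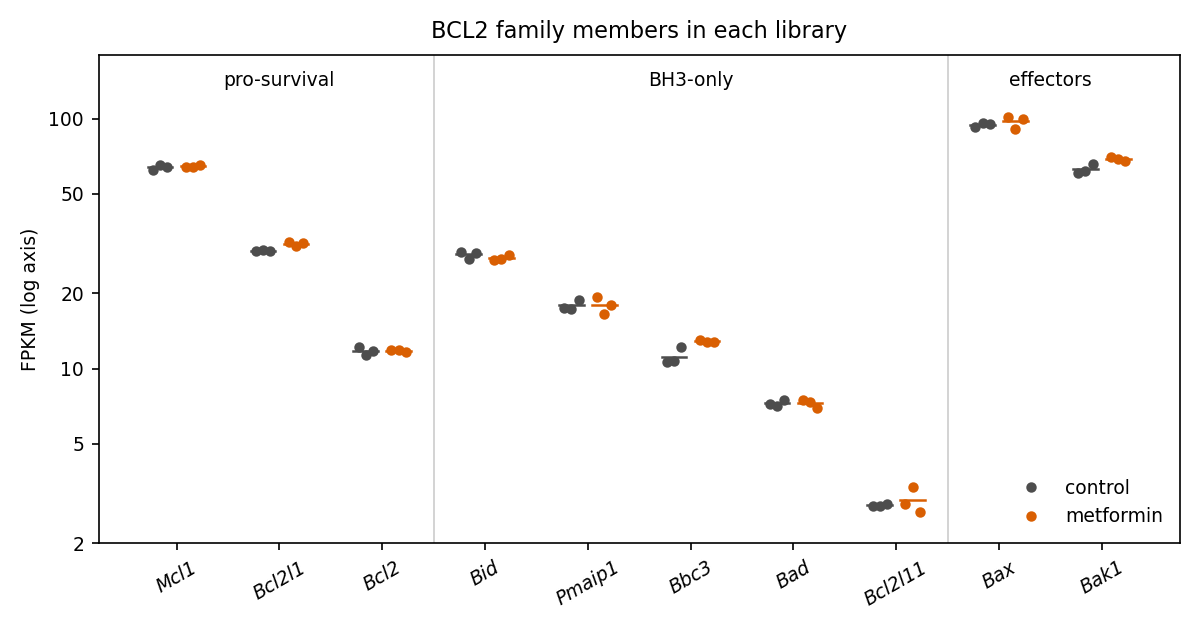
FPKM of the 10 members on a log axis, grouped as pro-survival, BH3-only and effector genes. Each point is 1 library, grey for control and orange for metformin, and the bars are the group means. Groups are apart for Bcl2l1, Bbc3 and Bak1, with metformin higher, and overlap for the other members.

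The ratio of metformin to control means ran from 0.969 for Bid to 1.15 for Bbc3, and no member passed the test over all genes. The members were compared with limma as log2(FPKM + 1), fitted over all 10661 genes that averaged 1 FPKM or more, and the added 1 makes differences of low genes look smaller than they are. All 10 members passed that filter. At an adjusted p under 0.05, 0 of the 10 members differed, against 0.0281% of all tested genes, which is 3 genes. At an unadjusted p under 0.05 from limma, 3 members were higher with metformin, where 6.03% of all tested genes were, and 0 were lower, where 4.81% of all tested genes were. These 3 were Bbc3, Bak1 and Bcl2l1, and they were also the members whose metformin libraries all lay above their control libraries. Over all tested genes 8.89% were apart in this direction and 8.1% in the other, in which 0 members were apart. The median log2 fold change of the 10 members was 0.030, with 8 higher and 2 lower, beside 0.0041 over all tested genes (5580 higher, 5081 lower).

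Among the pro-survival genes, Bcl2l1 had the highest fold change. The gene spans 152780668 to 152831728 of chromosome 2 (GRCm38, minus strand). Its FPKM was 29.61, 29.93 and 29.46 in control repeats 1 to 3 and 32.04, 30.85 and 31.79 in metformin repeats 1 to 3. The lowest metformin value exceeded the highest control value, and the control libraries were close to each other. The group means were 29.7 ± 0.240 and 31.6 ± 0.628 FPKM (SD, n = 3 each), a ratio of 1.06. The log2 fold change was 0.086 (standard error 0.026, 95% interval 0.025 to 0.15, adjusted p = 0.365 from limma, by the method of Benjamini and Hochberg), so the difference was larger than the spread between libraries but did not pass the adjustment over all genes.

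Mcl1 and Bcl2 did not separate the groups. Mcl1 (chromosome 3, 95658788 to 95663176, plus strand) had 62.09, 65.14 and 64.25 FPKM in the control libraries and 63.89, 64.38 and 65.50 with metformin. All of its metformin values but the highest fell inside the control range. Its log2 fold change was 0.017, with a 95% interval of -0.044 to 0.078 (adjusted p = 0.852 from limma). Bcl2 (chromosome 1, 106538178 to 106714274, minus strand) had 12.18, 11.31 and 11.77 FPKM in the control group and 11.84, 11.91 and 11.61 with metformin. The metformin libraries lay inside the control range, with a log2 fold change of 0.0043 and a 95% interval of -0.083 to 0.091 (adjusted p = 0.982 from limma). The sum of the 3 pro-survival genes was 103.9, 106.4 and 105.5 FPKM in the control libraries and 107.8, 107.1 and 108.9 with metformin, so that the groups of this sum were apart by a small margin.

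The highest fold change of all 10 members was that of the BH3-only gene Bbc3. It encodes PUMA, which binds all pro-survival proteins, and spans 16308393 to 16318205 of chromosome 7 (plus strand). Its FPKM was 10.61, 10.71 and 12.15 in the control libraries and 13.02, 12.77 and 12.83 in the metformin libraries. All metformin libraries were higher, and control repeat 3 stood nearest to them. The group means were 11.2 ± 0.862 and 12.9 ± 0.131 FPKM (SD, n = 3 each), a ratio of 1.15. Bbc3 had a log2 fold change of 0.19 (standard error 0.052, 95% interval 0.070 to 0.32, adjusted p = 0.346 from limma). By p it was gene 226 of 10661, with a fold change at the 96.8th percentile. The 3 tested genes with a symbol whose log2 values were most like those of Bbc3 over the 6 libraries were E130309D02Rik, Ubxn1 and Psph, with Pearson's r of 0.998, 0.995 and 0.994. This is a description over 6 libraries that share their groups, and 49 tested genes had an r over 0.95.

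The stretches before the starts of Bcl2l1 and Bbc3 are shown because these members had separate groups in the comparison above and are the pro-survival and the BH3-only gene with the highest fold change. Each holds 250 bases before a RefSeq start on GRCm38.p6, 5′ to 3′ on the strand of the gene, and capitals mark matches to the GC box GGGCGG on either strand. The stretch of Bcl2l1 is chr2:152831729-152831978 (minus strand) and ends at the 5′ end that the deposited table gives. That of Bbc3 is chr7:16309333-16309582 (plus strand), where RefSeq puts a start 1190 bp inside the gene of the table.
Bcl2l1: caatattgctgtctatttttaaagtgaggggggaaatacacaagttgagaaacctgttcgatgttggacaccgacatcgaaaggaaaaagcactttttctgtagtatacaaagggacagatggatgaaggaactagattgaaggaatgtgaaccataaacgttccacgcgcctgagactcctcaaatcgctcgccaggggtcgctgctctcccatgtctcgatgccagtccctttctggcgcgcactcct
Bbc3: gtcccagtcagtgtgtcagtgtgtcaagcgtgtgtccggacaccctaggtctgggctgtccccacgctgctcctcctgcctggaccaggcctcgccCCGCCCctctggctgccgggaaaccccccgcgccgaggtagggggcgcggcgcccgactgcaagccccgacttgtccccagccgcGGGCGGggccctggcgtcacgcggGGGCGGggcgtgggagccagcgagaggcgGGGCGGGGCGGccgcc
They differ in base composition, with 47.6% GC for Bcl2l1 and 76.4% for Bbc3, and in GC boxes, with 0 and 5. The letters TGATGNAA, a form of the site that ATF4 binds with C/EBP partners, and the E-box CACGTG were searched on both strands in the same way, and neither occurred in these 2 stretches. Of all 32851 RefSeq stretches of this length, 3.45% held TGATGNAA, 6.02% CACGTG and 32.7% GGGCGG. Over the 15 stretches given for 9 members, TGATGNAA occurred in 0, CACGTG in 2 (one of Bbc3 and that of Bax) and GGGCGG in 10. A match of letters is a description and not a binding site. The stretch of Bak1 held none of the 3 motifs and is not printed, because it overlaps an annotated transcript.

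The other BH3-only genes overlapped between the groups. Bcl2l11 (chromosome 2, 128126038 to 128162547, plus strand) had 2.83, 2.81 and 2.88 FPKM in the control libraries and 2.87, 3.37 and 2.68 with metformin. The metformin libraries spread on both sides of the control libraries, with a log2 fold change of 0.045 and a 95% interval of -0.13 to 0.22 (adjusted p = 0.866 from limma). Pmaip1 (chromosome 18, 66458533 to 66465565, plus strand) had 17.53, 17.32 and 18.85 FPKM and then 19.38, 16.58 and 17.95 with metformin. Both its highest and its lowest value were metformin libraries, and its log2 fold change was 0.0036 with a 95% interval of -0.14 to 0.14 (adjusted p = 0.992 from limma).

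Bid and Bad are regulated mainly after translation, BID by caspase 8 cleavage and BAD by phosphorylation. Bid (chromosome 6, 120891930 to 120916853, minus strand) had 29.29, 27.56 and 29.01 FPKM in the control group and 27.16, 27.58 and 28.43 with metformin. Its groups overlapped, with a log2 fold change of -0.044 and a 95% interval of -0.12 to 0.035 (adjusted p = 0.673 from limma). Bid overlaps Bcl2l13, a gene of the opposite strand with 10.68 to 11.85 FPKM, over 913 bp at their ends. It also overlaps a gene without a symbol on the same strand over 2094 bp (1.07 to 1.88 FPKM). Another gene without a symbol overlaps Bid on the opposite strand over 318 bp (1.37 to 3.81 FPKM). Bad (chromosome 19, 6941861 to 6951899, plus strand) had 7.20, 7.08 and 7.52 FPKM and 7.49, 7.36 and 6.94 with metformin. Its group means were nearly equal, with a log2 fold change of -0.00080 and a 95% interval of -0.10 to 0.10 (adjusted p = 0.998 from limma). Bad overlaps Gpr137 on the opposite strand, with 5.94 to 7.27 FPKM, over 620 bp. Whether the authors' counting used strand is not given in the sources used here, so fragments in these overlaps could belong to either gene.

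The effectors went in the same direction, by different amounts. Bak1 (chromosome 17, 27019810 to 27029009, minus strand) had 60.90, 62.02 and 66.17 FPKM in the control libraries and 70.07, 69.10 and 67.48 in the metformin libraries. The groups were apart, and control repeat 3 was again the control library nearest to metformin. The means were 63.0 ± 2.78 and 68.9 ± 1.31 FPKM (SD, n = 3 each), a ratio of 1.09. The log2 fold change of Bak1 was 0.13 (standard error 0.035, 95% interval 0.045 to 0.21, adjusted p = 0.346 from limma). Ggnbp1, which spans Bak1 on the opposite strand, had at most 0.13 FPKM. Bax (chromosome 7, 45461697 to 45466898, minus strand) had 92.68, 96.20 and 94.93 FPKM and 101.7, 91.22 and 99.76 with metformin. Metformin repeat 2 was the lowest library of all and the other 2 metformin libraries were the highest, so the groups overlapped, with a log2 fold change of 0.042 and a 95% interval of -0.055 to 0.14 (adjusted p = 0.743 from limma). With 1 library left out, the log2 fold change of Bax ran from 0.012 without metformin repeat 1 to 0.090 without metformin repeat 2, and was 0.026 without metformin repeat 3 and 0.028 without control repeat 1.

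For Bbc3, Bak1 and Bcl2l1 alike, a two-sided exact permutation test gave p = 0.1. With 3 libraries in each group, any gene whose groups do not overlap gets this value, and no lower one is possible. The test therefore only restates that the groups of these members were apart. The spread between libraries of one group, as the SD of log2(FPKM + 1), was 0.072 for Bbc3, 0.048 for Bak1 and 0.021 for Bcl2l1, beside a median of 0.060 over all tested genes. Bcl2l11 had the widest spread of the members, with 0.091. With 1 library left out, the log2 fold change ran from 0.16 to 0.25 for Bbc3 and from 0.10 to 0.16 for Bak1, in both lowest without control repeat 1 and highest without control repeat 3.

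**Figure D2:**
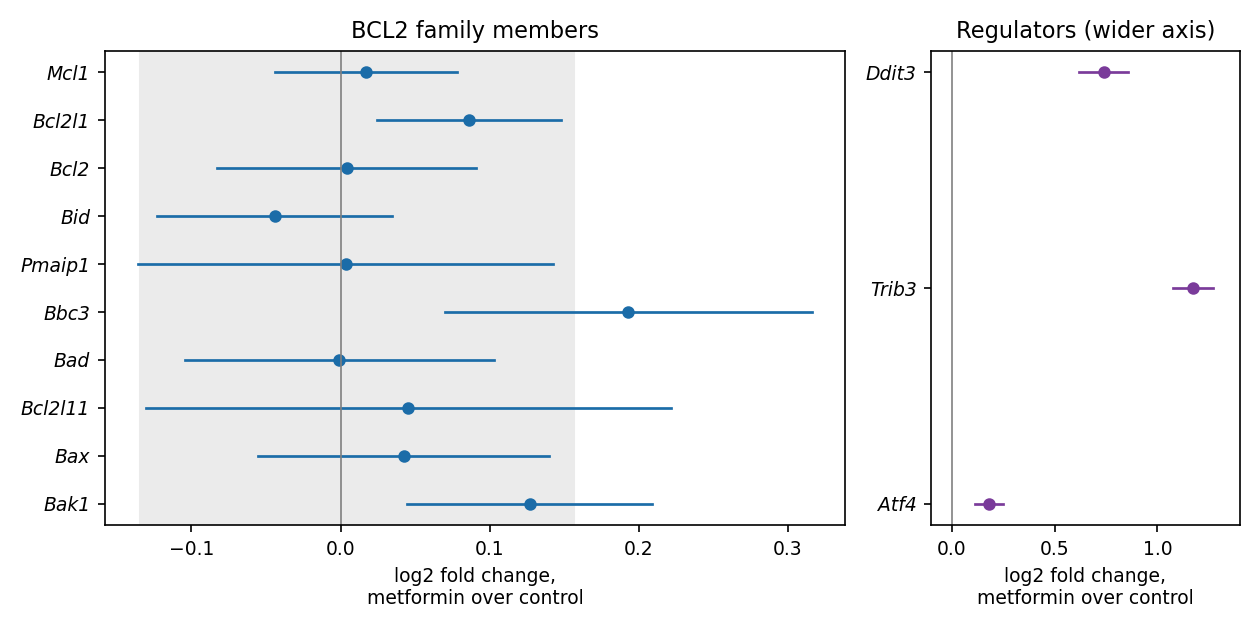
Log2 fold changes of metformin over control from limma, with 95% intervals, for the 10 members (left) and for Ddit3, Trib3 and Atf4 on a wider axis (right). The grey band holds the 5th to 95th percentile of all 10661 tested genes, -0.13 to 0.16, and Bbc3 is the only member whose fold change, 0.19, lies outside it.

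The balance between the classes was compared as ratios within each library, which do not depend on its scaling. The summed FPKM of Bcl2, Bcl2l1 and Mcl1 over that of the 5 BH3-only genes was 1.54, 1.625 and 1.498 in the control libraries and 1.541, 1.584 and 1.582 with metformin. The groups overlapped, with means of 1.55 ± 0.0645 and 1.57 ± 0.0240 (SD, n = 3 each). Over the effectors, the pro-survival sum was 0.676, 0.672 and 0.655 in the control group and 0.628, 0.668 and 0.651 with metformin. The control mean was 0.668 ± 0.0115 and the metformin mean 0.649 ± 0.0205 (SD, n = 3 each), again with overlap. Bcl2 over Bax, a ratio often used as an index of survival, was 0.131, 0.118 and 0.124 in the control libraries and 0.116, 0.131 and 0.116 with metformin. The effectors made up 47.7% ± 0.354 of the summed FPKM of the family in the control group and 48.5% ± 0.655 with metformin (SD, n = 3 each), the pro-survival genes 31.8% ± 0.479 and 31.5% ± 0.573, and the BH3-only genes 20.5% ± 0.575 and 20.05% ± 0.124. These are amounts of RNA and not of protein.

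**Figure D3:**
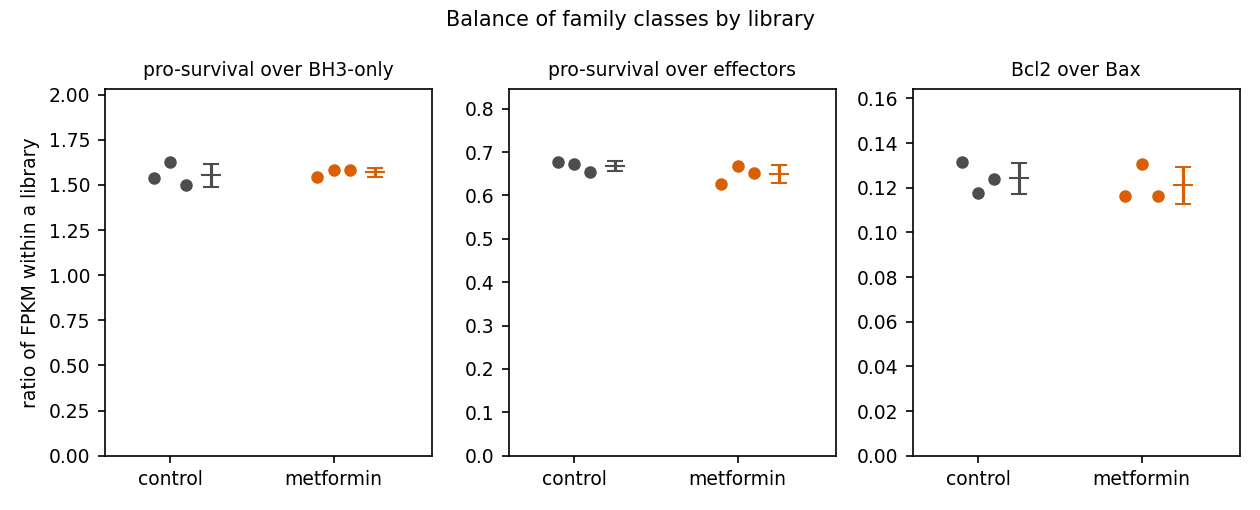
Ratios of summed FPKM within each library, on axes that start at 0. Points are libraries, and bars beside them give the mean and SD of 3 libraries. The groups overlap in all 3 ratios, for example 1.498 to 1.625 in control and 1.541 to 1.584 with metformin for pro-survival over BH3-only genes.

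Of the 3 genes that passed over all tested genes, 2 were in the list of regulators, which also holds Trib3 as a stress target. The list was chosen with earlier results of these data known, so this count is a description only. Ddit3, which encodes CHOP, had 7.32, 6.90 and 7.77 FPKM in the control libraries and 12.39, 13.45 and 12.86 with metformin, a log2 fold change of 0.74 (adjusted p = 0.00453 from limma). Trib3, a CHOP and ATF4 target that encodes a pseudokinase, had 6.42, 6.92 and 6.33 FPKM and 15.89, 16.43 and 15.82 with metformin, a log2 fold change of 1.17 (adjusted p = 0.000127 from limma). Both rose past the threshold in this fit. With the repeat number added to the model, Trib3 still passed and Ddit3 did not (adjusted p = 0.00432 and 0.0833 from limma). Atf4 had 200.3, 207.4 and 202.9 FPKM and 238.0, 233.0 and 221.8 with metformin, a log2 fold change of 0.18 (adjusted p = 0.243 from limma). Its groups were apart, but it did not pass. Set beside these, the members known as targets of CHOP or ATF4 had log2 fold changes of 0.19 (Bbc3), 0.045 (Bcl2l11) and 0.0036 (Pmaip1). The upper ends of the 95% intervals of these members were 0.32, 0.22 and 0.14. For Bcl2, the lower end of the interval was -0.083. Whether CHOP or ATF4 acted on any of these members was not tested, and neither were differences between genes. Of the 11 tested genes in the list of regulators, 2 passed over all tested genes, 7 were higher and 4 lower, and the median log2 fold change was 0.039. Among all tested genes 0.0281% passed, 5580 were higher and 5081 lower, and the median was 0.0041. Trp53, which encodes p53, had 47.7 ± 1.18 and 48.7 ± 0.830 FPKM (SD, n = 3 each) and overlapped between the groups.

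Most of the further family genes that could be matched were little expressed. Of 13 further family genes listed, 11 were matched by symbol and 2 of these reached a mean of 1 FPKM. Bcl2a1a and Bcl2a1d were not matched, so their level is not known. Bcl2l13, a mitophagy receptor of the outer membrane, was the highest, with 11.4 ± 0.259 FPKM in the control group and 11.3 ± 0.585 with metformin (SD, n = 3 each). Bcl2l12 had 7.51, 6.71 and 6.59 FPKM in the control libraries and 6.13, 6.08 and 6.31 with metformin, with all metformin libraries lower and a log2 fold change of -0.14 (adjusted p = 0.413 from limma). Hrk and Bik were listed at 0 in all libraries. Bmf, a BH3-only gene singled out after its values were seen, had 0.34, 0.34 and 0.35 FPKM in the control libraries and 0.50, 0.57 and 0.43 with metformin. These libraries were apart, but the level was near the 0.214 to 0.224 FPKM that 3 fragments on 1 kb are worth, and a fit without the filter gave adjusted p = 0.612 from limma. This limit covers counting error only.

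Downstream of the mitochondria, the apoptosome, caspase and IAP list had 12 tested genes, 5 higher and 7 lower with metformin, with a median log2 fold change of -0.015. None of the 12 passed, where 0.0281% of all tested genes did, so the absence of a call in so short a list says little. Casp9, Apaf1 and Cycs, which form the apoptosome, overlapped between the groups, and metformin repeat 1 had the lowest value of Casp9 (1.88 FPKM) and Cycs (10.93 FPKM).

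In the death receptor arm, 6 of 8 genes were tested, with 5 higher, 1 lower and a median log2 fold change of 0.012. None of the 6 passed, where 0.0281% of all tested genes did. Casp8, which cleaves BID, was the highest, with 36.7 ± 1.76 FPKM in the control group and 37.0 ± 0.839 with metformin (SD, n = 3 each). Fas, a death receptor and p53 target, had 1.48, 1.41 and 1.11 FPKM and 1.73, 1.63 and 1.58 with metformin, apart but with a log2 fold change of 0.18 at adjusted p = 0.504 from limma. Tnfrsf10b, a receptor known as a CHOP target, had at most 0.18 FPKM, less than 3 fragments on 1 kb are worth.

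All 8 genes in the list of partners at the outer membrane were tested, 5 higher and 3 lower, with a median log2 fold change of 0.0051. None of the 8 passed, where 0.0281% of all tested genes did. Bag1, a BCL2-binding co-chaperone, had the highest mean over all 6 libraries, with 121 ± 1.84 FPKM in the control group and 129 ± 5.28 with metformin (SD, n = 3 each) and overlapping groups. The channel gene Vdac1 was close to it, with 124 ± 1.29 and 125 ± 1.12 FPKM (SD, n = 3 each), and was above Bag1 in the control group. Bag3, a stress-induced co-chaperone, had 11.21, 10.24 and 10.61 FPKM and 13.10, 11.65 and 11.45 with metformin. Its metformin libraries were all higher, with a log2 fold change of 0.16 (adjusted p = 0.403 from limma).

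**Figure D4:**
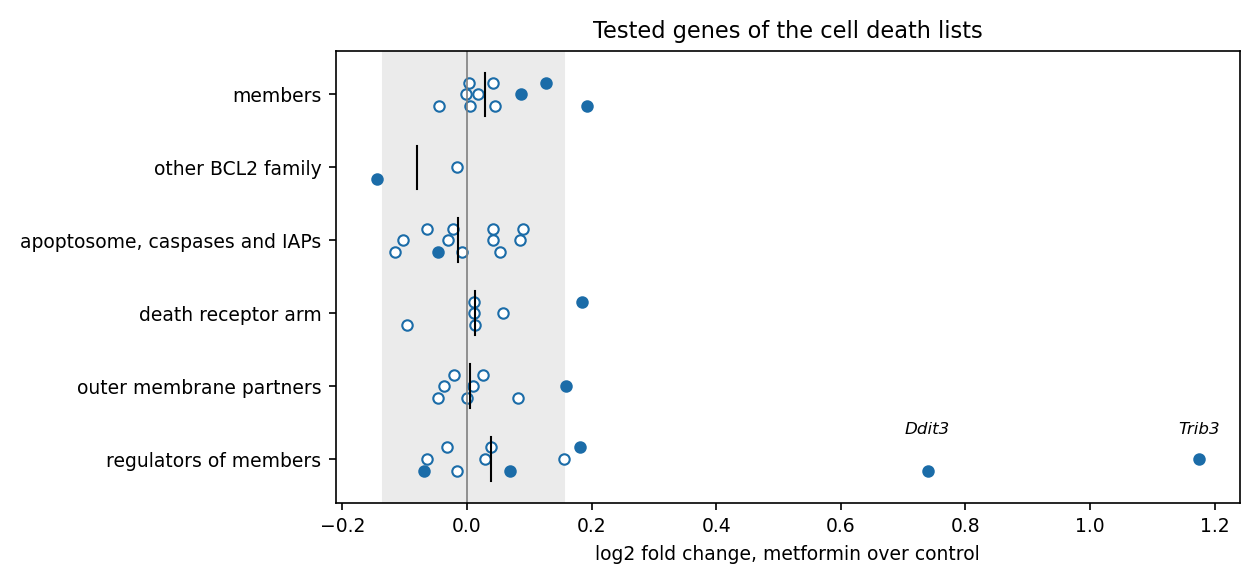
Log2 fold changes of the tested genes of each list, with filled points where the groups did not overlap, open points where they did, and black lines at the medians. The grey band holds the 5th to 95th percentile of all tested genes (-0.13 to 0.16), and Ddit3 at 0.74 and Trib3 at 1.17 lie far outside it.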

How the data were processed

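RNA-seq data of 3 control and 3 metformin libraries were analysed, with groups and repeat numbers from the sample titles. The authors deposited FPKM values, rounded to 2 decimals, in 1 column per library. The submitters' processing notes name HISAT2, DESeq2 and mm9 without roles, and the counter is not given in the sources used here. Gene positions overlapped those of RefSeq GRCm38.p6 for 99.5% of 23252 genes compared, so coordinates are given as GRCm38. The labels name the KAPA Stranded mRNA-Seq kit and the paper a VAHTS kit.

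Symbols were matched by Ensembl identifier. FPKM was tested as log2(FPKM + 1) for genes averaging 1 FPKM or more, using two-sided limma 3.58.1 in R 4.3.3 (eBayes with trend) and Benjamini-Hochberg adjustment over all tested genes at 0.05. No count test was made, since FPKM is not a count. Depth was fitted from single-exon genes shorter than 400 bp, whose values fell within 0.1 of whole fragments. The scripts were tested on simulated data with 200 changed genes. There limma recovered 24% of genes changed by a log2 of 0.25 and 86.5% of those changed by 0.5. The absence of a call on a member therefore does not show that its RNA was unchanged.

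The 10 members and all lists were chosen with earlier results of these data known. Named genes were the members and, from each list, genes past the threshold, the highest, and up to 3 with the lowest p among those with separate groups. Ddit3, Atf4 and Trib3 were always named, and 3 genes were named for likeness to the member with the lowest p. One gene that this rule names is not reported here. Vdac1, Gata2, Ptprc, Lcp1, Bmf and the apoptosome genes fall outside it and were chosen after their values were seen. Trp53, Tnfrsf10b, Hrk, Bik, Pou5f1, Dppa3, Dazl and Lum also fall outside it. So do genes named only for their overlap with a member or for the lack of a match. Figures were drawn with matplotlib 3.10.9. Alternatives were a pseudocount of 0.1, no filter, a mean of at least 10 FPKM, TPM, quantile normalization, median centring, no trend, a replicate block, each library left out, and, for the balance, mean log2 values and the sum without Bid and Bad.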

Additional observations from a re-analysis of the deposited data

How the results depend on the processing

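Under each alternative 0 members passed at an adjusted p of 0.05, with all 10 tested except at a mean of at least 10 FPKM, where 8 were, and the smallest adjusted p of a member was 0.227 (limma, mean of at least 10 FPKM). Bbc3, Bak1, Bcl2l1, Bax and Bid kept their direction under each alternative run. For Bbc3, Bak1 and Bcl2l1, whose groups are apart, leaving out 1 library could not change the sign. The filters, the fit without trend and the replicate block leave the fold change of a tested member as it was, so they could not change a sign either. The sign of members near 0 did not hold. Bcl2 was -0.0001 after quantile normalization and Pmaip1 -0.00080 in TPM, and with each library left out the log2 fold change ran from -0.021 to 0.028 for Bcl2, -0.0024 to 0.032 for Mcl1, -0.025 to 0.099 for Bcl2l11, -0.049 to 0.057 for Pmaip1 and -0.021 to 0.028 for Bad. Over all genes, 7 passed without the filter, when 22809 genes were tested, against 3. In the death pathway lists 2 genes passed, and 1 with the replicate block, where Ddit3 had adjusted p = 0.0833 from limma. Deviations of libraries with the same number correlated at -0.0317, 0.0181 and 0.0479. These small values cannot exclude that libraries with the same number were handled together. The block changed no other call on a member or list. The log2 ratio of metformin to control for pro-survival over BH3-only sums was 0.014, and -0.0121 to 0.0467 with 1 library left out, turning negative without control repeat 3. It was -0.049 without Bid and Bad and -0.0035 from mean log2 values.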
